A study of Mus musculus with 7 samples.

Results

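The miR-23, miR-27 and miR-24 microRNAs come from a pair of paralogous gene clusters, and 8 of their mature strands were followed across 7 small RNA libraries of sorted mouse embryonic spinal cells. They are mmu-miR-23a-3p, mmu-miR-23b-3p, mmu-miR-27a-3p, mmu-miR-27b-3p, mmu-miR-24-3p, mmu-miR-27a-5p, mmu-miR-27b-5p and mmu-miR-24-2-5p (the species prefix is left out from here on), taken by name out of 1908 annotated mature miRNAs, and all 8 were listed in both deposited tables. At E10.5 the libraries were 2 of GFP-positive motoneurons from Hb9::gfp embryos and 2 of the GFP-negative, non-motoneuron spinal cells of the same genotype. At E12.5 there was 1 library each of Hb9::gfp motoneurons, of tdTomato-positive V2a interneurons (Chx10::cre;Rosa26::LSL::tdTomato) and of tdTomato-positive V3 interneurons (Sim1::cre;Rosa26::LSL::tdTomato). In these lines the Hb9 promoter drives GFP, and Chx10- or Sim1-driven Cre switches on tdTomato in any cell that has expressed it. The GFP-negative fraction is a mixture of cell types. The labels do not say whether embryos were pooled or whether the replicate libraries stem from independent sorts. The p-values therefore reflect only how far these libraries spread, which may be technical.

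A microRNA gene is transcribed as a long precursor, from which a hairpin is cut and then trimmed to a duplex of about the length of a mature strand. One strand, the guide, is loaded into an Argonaute protein and pairs with target mRNAs mainly through its seed, bases 2 to 8, while the passenger strand is mostly degraded. For all 3 families the guide is the 3p strand. In mouse, miR-27 has been tied to the timing of Hox protein expression in motoneurons, and the clusters are also known from endothelial, muscle and other mesodermal cells. Because the hairpins of a cluster share a precursor, their mature strands can be read as products of common transcripts that are processed and degraded at their own rates.

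Guide strands of the same family are shown first, since nearly identical sequences limit what the counts can separate. Sequences are those of RefSeq (GRCm38.p6), written 5′ to 3′ with the seed in capitals, and RefSeq gave a mature entry for 7 of the 8 members. The missing entry is miR-23b-3p.
miR-23a-3p: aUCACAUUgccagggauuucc
miR-27a-3p: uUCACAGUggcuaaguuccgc
miR-27b-3p: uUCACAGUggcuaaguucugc
miR-24-3p: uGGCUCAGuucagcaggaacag
The miR-27 guides share their seed and differ at 1 of 21 positions, as C19U from miR-27a-3p to miR-27b-3p, counted from the 5′ end. miR-23a-3p and miR-27a-3p differ at 10 of 21 positions, of which U7G is the only one inside the seed. The mature miR-24-3p sequence can be cut from either of its hairpins, Mir24-1 or Mir24-2.

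The passenger strands tell the clusters apart better and are shown for that reason, with the seed again in capitals.
miR-27a-5p: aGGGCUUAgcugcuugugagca
miR-27b-5p: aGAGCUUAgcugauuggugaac
miR-24-2-5p: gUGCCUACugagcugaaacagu
miR-24-1-5p: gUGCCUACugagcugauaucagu
miR-27a-5p and miR-27b-5p differ at 8 of 22 positions, G3A within the seed among them. miR-24-2-5p and miR-24-1-5p share a seed and differ at 5 of the first 22 positions. The whole Mir27a and Mir27b hairpins follow, with the mature strands in capitals, to show that the 3p arms are near copies while the 5p arms and the loops are not.
Mir27a: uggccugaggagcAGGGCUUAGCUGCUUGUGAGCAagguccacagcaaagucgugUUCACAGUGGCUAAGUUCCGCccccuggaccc
Mir27b: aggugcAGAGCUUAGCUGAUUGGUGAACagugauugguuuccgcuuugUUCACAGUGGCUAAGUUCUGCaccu

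Mir23a, Mir27a and Mir24-2 lie within 404 bases on the plus strand of chromosome 8 (GRCm38, chr8:84208518-84208921). In the GENCODE annotation Mir24-2 overlaps an exon of the long noncoding RNA gene Gm26532, and no gene other than their own was found over Mir23a or Mir27a. Mir23b, Mir27b and Mir24-1 lie within 800 bases of chromosome 13 (chr13:63300484-63301283, a span that includes Mir3074-1), on the plus strand. All 3 are inside the protein-coding gene 2010111I01Rik, with Mir23b in an intron and Mir27b and Mir24-1 overlapping annotated exons, and inside an intron of Fancc on the opposite strand. Each Mir24 hairpin has a miR-3074 hairpin annotated on the other strand. miR-3074-5p is complementary to miR-24-3p over 20 of its 22 bases:
miR-3074-5p: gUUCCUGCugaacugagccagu

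The E10.5 table groups mature miRNAs that share reads into bundles, and 6 of the 8 members were in one with another entry. miR-23a-3p shared with miR-23b-3p, and miR-27a-3p with miR-27b-3p. miR-24-3p shared with miR-3074-5p, and miR-24-2-5p with miR-3074-2-3p. The split of reads inside these bundles is therefore uncertain, and whether the counting used strand is not given in the sources used here. miR-27a-5p and miR-27b-5p stood alone.

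Depth ran from 493230 to 802746 reads in the E10.5 libraries and from 3604088 to 4604768 in the E12.5 libraries. E10.5 values are RPM, reads per 1000000 miRNA reads, where 1 read was worth 1.25 to 2.03 RPM. E12.5 values are TPM, which is also per length, where 1 read was worth 0.22 to 0.28 TPM. miR-218-5p, the motoneuron marker of the study, stood at 177885 and 200305 RPM in E10.5 motoneurons, against 6623 and 7315 RPM in GFP-negative cells. At E12.5 it stood at 104198 TPM in motoneurons, 7558 TPM in V2a and 7282 TPM in V3. It was thus highest in every library labelled motoneuron. The labels of the V2a and V3 libraries were not checked against markers of their own.

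The E10.5 comparison asks how the clusters differ between motoneurons and the GFP-negative fraction, a mixture of cell types. All members lay lower in motoneurons: together they took 1649 and 1875 RPM in the motoneuron libraries, against 6296 and 6433 RPM in the GFP-negative libraries, a 3.61-fold difference of the means. In bulk samples, fewer cells of a type that holds a miRNA and less of it per cell cannot be told apart. Groups were tested by limma on log2(RPM + 1) over the 492 miRNAs that reached 15.2 RPM in at least 2 libraries, with Benjamini-Hochberg adjustment over all 492. Of the members, 4 reached that level in both groups, and all 4 were called lower at an adjusted p under 0.05, where 28.1% of the 449 miRNAs that reached it in both groups were. The other 4 reached it only in GFP-negative libraries and so had to differ. Over all tested miRNAs, 30.7% were called lower and 11.6% higher, and the median log2 fold change was -0.34.

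**Figure D1:**
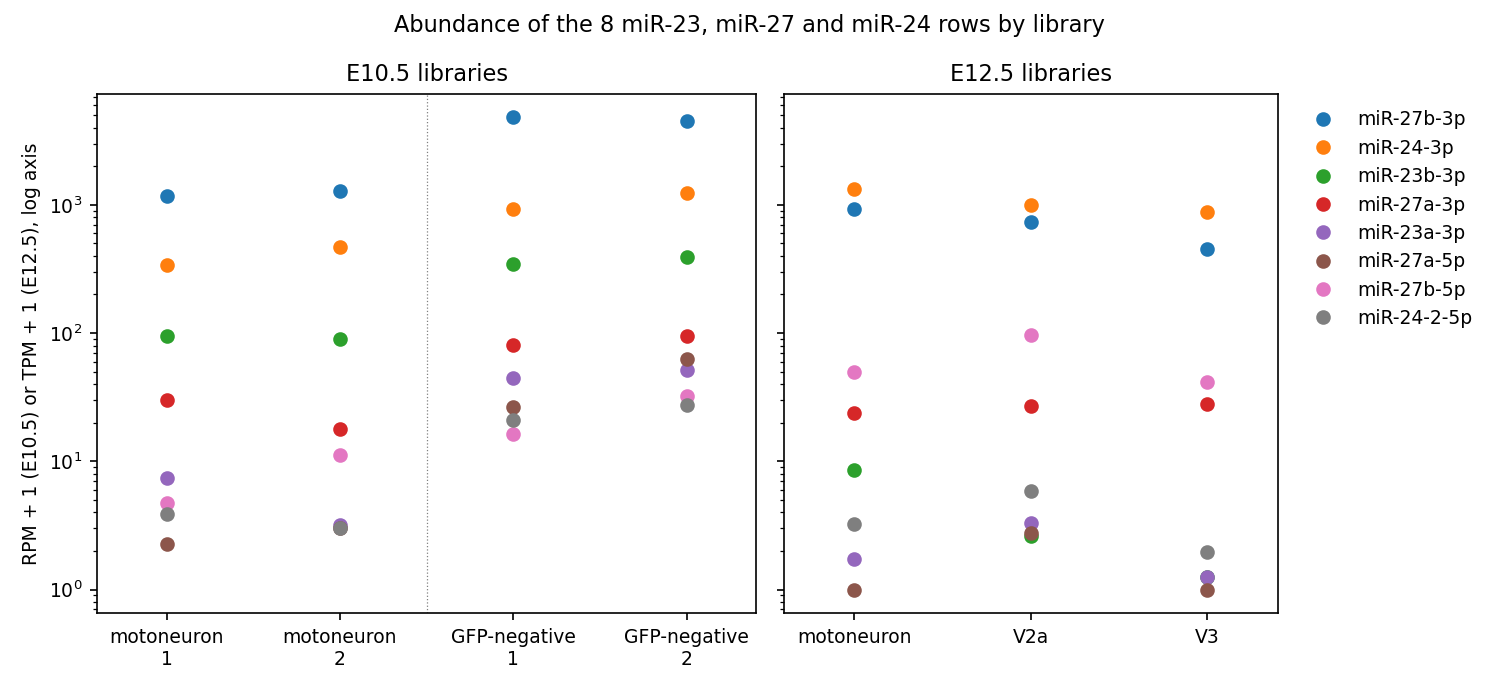
Abundance of the 8 mature miRNAs in each library, as RPM + 1 at E10.5 (left) and TPM + 1 at E12.5 (right), on a log axis shared by 2 separately scaled tables. Points are single libraries, and each member lies lower in both E10.5 motoneuron libraries than in both GFP-negative libraries. So did 48.6% of the 492 miRNAs tested. For the 4 members that reached 15.2 RPM in GFP-negative libraries only, this gap was built in by the choice of tested miRNAs.

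miR-27b-3p, the guide of Mir27b and the most abundant member at E10.5, stood at 1176 and 1285 RPM in motoneurons, against 4833 and 4530 RPM in GFP-negative cells. Each group was tight and the gap between them wide. The means were 1230 ± 77.1 RPM in motoneurons and 4681 ± 215 RPM in GFP-negative cells (SD, n = 2 each), 3.81-fold apart. On the tested scale the log2 fold change was -1.93 (SE 0.16, limma adjusted p = 0.000381), or -1.59 relative to the median of all miRNAs tested.

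miR-24-3p, the guide that both clusters produce, stood at 336 and 468 RPM in motoneurons, against 933 and 1247 RPM in GFP-negative cells. The libraries did not overlap, although they varied more within a group than those of miR-27b-3p. Its log2 fold change was -1.44 (SE 0.25, limma adjusted p = 0.00415), a 2.71-fold difference of the means. With miR-3074-5p added, which stood level at 104 and 91.9 RPM in motoneurons against 118 and 76.2 RPM in GFP-negative cells, the log2 fold change was -1.25. Per library, the log2 ratio of miR-24-3p over miR-27b-3p was -1.81 and -1.46 in motoneurons, against -2.37 and -1.86 in GFP-negative cells. miR-24-3p thus differed less between the groups by 0.48 on the log2 scale, with an exact two-sided permutation p of 0.333, which is the smallest that 2 libraries against 2 allow.

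miR-23b-3p, the main miR-23 guide in these cells, stood at 94.5 and 89.0 RPM in motoneurons, against 344 and 393 RPM in GFP-negative cells. The group means were 4.02-fold apart (log2 difference -1.99, SE 0.24, limma adjusted p = 0.00108). The log2 fold changes of miR-23b-3p and its cluster partner miR-27b-3p differed by -0.06, and their per-library ratios overlapped between groups (exact two-sided permutation p = 0.667). miR-27a-3p stood at 28.9 and 16.8 RPM in motoneurons, against 80.2 and 93.2 RPM in GFP-negative cells (log2 fold change -1.92, SE 0.39, limma adjusted p = 0.00787). It made up 2.38% and 1.25% of the miR-27 guide reads in motoneurons, against 1.62% and 2.01% in GFP-negative cells, so its share overlapped between the groups. The miR-27 guides share a bundle, so how much of the miR-27a-3p value comes from Mir27a is uncertain.

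miR-23a-3p and the 3 passenger strands were near the limit of counting in motoneurons. All 4 reached the abundance filter only in GFP-negative libraries, so a difference was built into their selection, and their log2 fold changes and p-values describe them without adding support. miR-27a-5p, the Mir27a passenger, stood at 1.25 and 2.03 RPM in motoneurons, which is 1 read in each library, against 25.7 and 61.3 RPM in GFP-negative cells. The pooled reads, 2 against 53, gave a 26.1-fold difference with a 95% counting interval of 6.88 to 221. That interval covers counting error only, not the spread between replicates, and is likewise a description. The log2 fold change of miR-27a-5p was -3.97 (SE 0.56, limma adjusted p = 0.00186). miR-23a-3p stood at 6.41 and 2.21 RPM in motoneurons, against 44.0 and 51.0 RPM in GFP-negative cells. The log2 fold change was -3.31 (SE 0.52, limma adjusted p = 0.00321), or -2.71 without motoneuron replicate 2 and -3.91 without motoneuron replicate 1. miR-24-2-5p, the passenger of Mir24-2, stood at 2.91 and 2.03 RPM in motoneurons, against 20.2 and 26.4 RPM in GFP-negative cells (log2 fold change -2.81, SE 0.46, limma adjusted p = 0.00363). Only about 3 reads in all lay behind the motoneuron value.

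miR-27b-5p, the Mir27b passenger, did not pass the threshold. It stood at 3.74 and 10.1 RPM in motoneurons, against 15.4 and 31.6 RPM in GFP-negative cells, a log2 difference of -1.67 (SE 0.60, limma adjusted p = 0.0616). The libraries did not overlap, but for this member and the 3 before it the filter fixed that. Of the 4 guides that reached the filter in both groups, 4 had motoneuron libraries below both GFP-negative libraries. So did 48.6% of all tested miRNAs, a share that includes those that reached the filter in a single group. The log2 fold change of miR-27b-5p was -2.29 without motoneuron replicate 2 and -1.05 without motoneuron replicate 1.

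**Figure D2:**
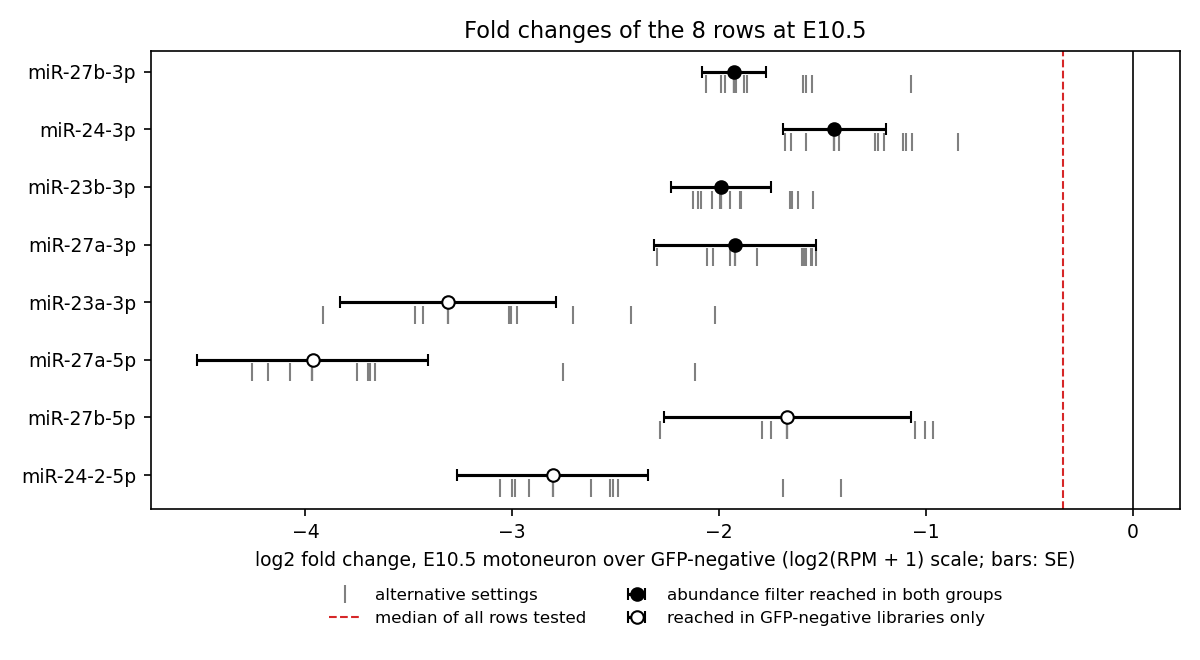
Log2 fold change of E10.5 motoneurons over GFP-negative cells for each member, on the log2(RPM + 1) scale (points, with bars of 1 SE), with the values under other settings as grey ticks. Filled points reached the abundance filter in both groups, open points in GFP-negative libraries only. Every point and tick lies left of the red dashed line, the median of all miRNAs tested in the main setting.

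Each product of a chromosome 8 hairpin was also set against its chromosome 13 counterpart, in 4 pairs, the miR-23 passengers being too scarce. In 3 of these pairs the chromosome 8 product had reached the abundance filter only in GFP-negative libraries, so its gap between groups was partly built in and the shares are a description. In the miR-27 passengers, miR-27a-5p was 25.1% and 16.7% of the pair in motoneurons, against 62.5% and 66.0% in GFP-negative cells. In the miR-24 passengers, per base of length, miR-24-2-5p was 28.3% and 13.2% in motoneurons, against 57.5% and 49.5% in GFP-negative cells. In the miR-23 guides, miR-23a-3p was 6.35% and 2.42% in motoneurons, against 11.3% and 11.5% in GFP-negative cells. These 3 shares did not overlap between the groups, and the log2 fold changes of the paired rows differed by -2.30, -1.86 and -1.32. Each difference had an exact two-sided permutation p of 0.333, the smallest possible here, so none of the 6 pairs of miRNAs compared in this way could pass a threshold of 0.05. In the miR-27 guides, the pair whose chromosome 8 product reached the filter in both groups, the difference was 0.003. In motoneurons the miR-27a-5p and miR-24-2-5p shares rest on 1 or 2 reads of the chromosome 8 row in each library.

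miR-24-1-5p, the passenger of Mir24-1, stood at 7.72 and 13.9 RPM in motoneurons, against 15.6 and 28.1 RPM in GFP-negative cells, and was not called (log2 fold change -0.95, SE 0.50, limma adjusted p = 0.174). The other entries of the same loci were scarce. miR-23b-5p stood at 1.25 and 0 RPM in motoneurons, against 6.43 and 9.28 RPM in GFP-negative cells, and miR-23a-5p was at or under 1.86 RPM in every E10.5 library. miR-3074-1-3p and miR-3074-2-3p stayed below 10 RPM throughout. None of these 4 reached the abundance filter.

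Within a library the order of the guides was fixed. Per base of mature length, miR-27b-3p was highest, then miR-24-3p, miR-23b-3p and miR-27a-3p, in all 4 E10.5 libraries. Below them the order changed between libraries, and neighbours in the order of miR-23a-3p, miR-27a-5p, miR-27b-5p and miR-24-2-5p overlapped or touched in both groups. The miR-27 guides together were 11.9 and 14.3 times the miR-23 guides in motoneurons, against 12.6 and 10.4 times in GFP-negative cells. That ratio overlapped between groups.

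Scaling shifted the size of the differences but not their direction. With the median of ratios, which put the median of all miRNAs at 0.01, the 4 better measured guides had log2 fold changes from -1.10 to -1.65, and all were called. Under quantile normalization miR-27b-3p had -1.07 and miR-24-3p had -0.85 (limma adjusted p = 0.00523 and 0.0489). With a pseudocount of 10 RPM, the log2 fold changes of miR-27a-5p, miR-23a-3p and miR-24-2-5p were -2.12, -2.02 and -1.41, again as a description, since these 3 reached the filter only in GFP-negative libraries.

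Markers of other cell types moved in the same direction in these libraries, and their part in the result was not tested. The endothelial miR-126a-3p stood at 501 and 288 RPM in motoneurons, against 957 and 663 RPM in GFP-negative cells (log2 fold change -1.07, limma adjusted p = 0.0344). The endothelial list of miR-126a-3p and miR-126a-5p summed to 295 to 508 RPM in motoneurons, against 676 to 977 RPM in GFP-negative cells, and neither was at 0 in any library. All 10 mesenchymal and smooth muscle miRNAs were called lower, with a sum of 424 to 1571 RPM in motoneurons, against 81413 to 94290 RPM in GFP-negative cells. Of these, miR-145a-3p was at 0 in both motoneuron libraries. Of 4 muscle miRNAs, 3 were tested and all 3 called lower. The muscle list summed to 130 to 355 RPM in motoneurons, against 3796 to 4192 RPM in GFP-negative cells, with no member at 0. The 3 sensory neuron miRNAs summed to 1971 to 2325 RPM in motoneurons, against 9171 to 9535 RPM in GFP-negative cells. The 4 blood miRNAs found in the table stayed at or under 36.0 RPM in sum in every library, with 3 of them at 0 in each motoneuron library. Of 7 pan-neuronal miRNAs, 3 were called higher and none lower.

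Of the miRNAs that earlier work has linked to motoneurons, some were called higher and some lower. Of 6 listed, 3 were called higher, among them miR-196a-5p (log2 fold change 1.05, limma adjusted p = 0.00913) and miR-196b-5p (limma adjusted p = 0.00677), which lie in the Hox clusters, with miR-218-5p as the third. The 2 called lower were miR-17-3p (-1.06, limma adjusted p = 0.00978) and miR-375-3p (-2.53, limma adjusted p = 0.0037). miR-9-5p was not called.

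At E12.5 the question is whether the clusters differ between motoneurons and spinal interneurons. There is 1 library of each population, so no difference has a replicate check and no test was made. The order of levels was not that of E10.5: miR-24-3p was the most abundant member in all 3 libraries, at 1327 TPM in motoneurons, 991 TPM in V2a and 885 TPM in V3. miR-27b-3p followed with 933 TPM in motoneurons, 728 TPM in V2a and 453 TPM in V3. Motoneurons, lower at E10.5 than their comparison cells, thus held the highest level of both guides at E12.5 as the values were deposited, against a different set of cells. The ratio of miR-24-3p to the miR-27 guides was 1.39, 1.31 and 1.84 in motoneurons, V2a and V3, against 0.18 to 0.34 in the E10.5 libraries. The tables were made and scaled separately, so a difference of stage and one of table cannot be told apart.

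The fold of motoneurons over V3 for miR-27b-3p was 2.06 (95% counting interval 1.94 to 2.18), and over V2a it was 1.28 (1.22 to 1.35). For miR-24-3p the fold over V2a was 1.34 (1.28 to 1.40), and the log2 ratio over V3 was 0.58. These intervals cover counting error only. With totals that leave out the 5 most abundant miRNAs, both guides went the other way against V2a, with log2 ratios of -0.29 for miR-27b-3p and -0.23 for miR-24-3p. Against V3, miR-24-3p also went the other way under that scaling (-0.25), and miR-27b-3p remained higher in motoneurons (0.21). Scaled by the median of ratios or by TMM, both guides were higher in motoneurons than in V2a and V3. V2a over V3 for miR-24-3p, 1.12 as deposited, went the other way under all 3 of these scalings (log2 ratios -0.36 to -0.03).

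miR-27a-3p was nearly level, at 22.8 TPM in motoneurons, 25.9 TPM in V2a and 27.0 TPM in V3. All 3 of its ratios had counting intervals that include 1, although without the 5 most abundant miRNAs in the totals its log2 ratio of motoneurons over V3 was -1.03. miR-27b-5p followed another order than its guide, with 48.4 TPM in motoneurons, 96.3 TPM in V2a and 40.4 TPM in V3. V2a over V3 was 2.39 (95% counting interval 1.99 to 2.87), and motoneurons over V2a were 0.503 (0.419 to 0.601). On the log2(TPM + 1) scale, V2a over V3 was 1.23 as deposited, but 0.72 with the median of ratios and 0.74 with TMM, which is within 2-fold. Without the 5 most abundant miRNAs in the totals, motoneurons over V2a were -1.61, past 2-fold lower, and motoneurons over V3 turned to -0.56, against 0.26 as deposited. miR-24-2-5p was low, at 2.25 TPM in motoneurons, 4.82 TPM in V2a and 0.96 TPM in V3, which is 8, 22 and 4 reads.

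**Figure D3:**
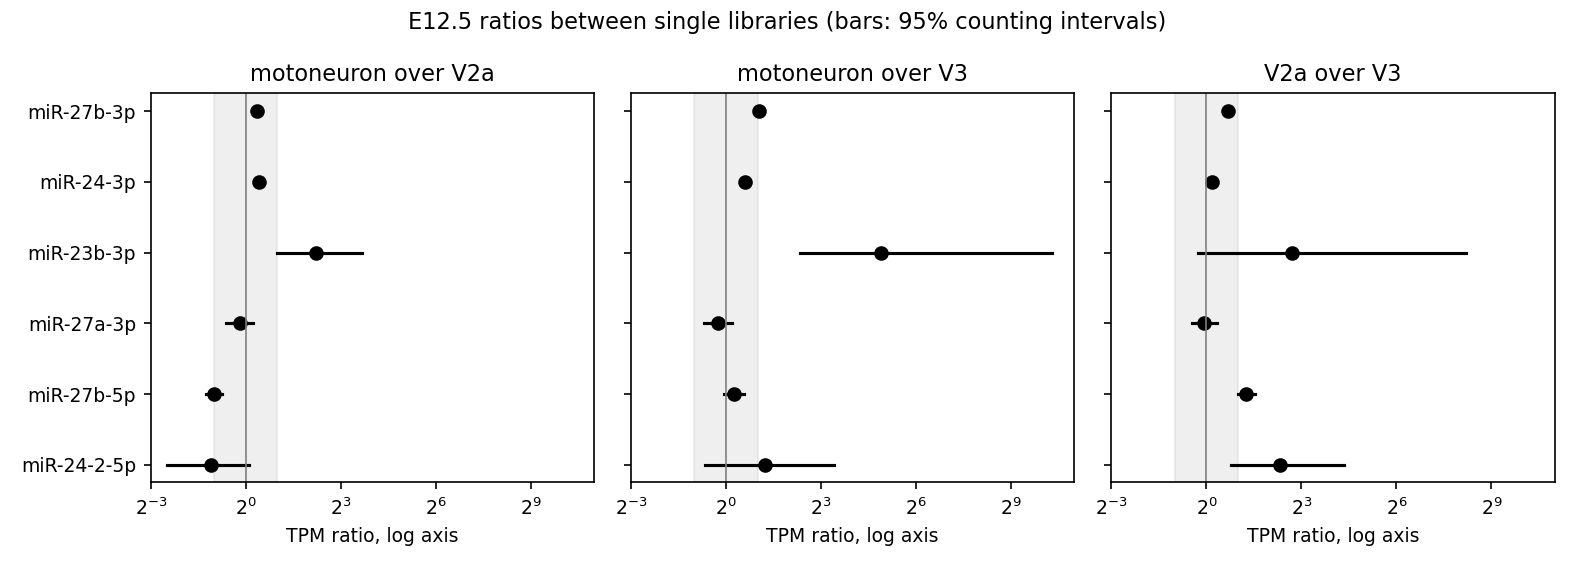
TPM ratios between the single E12.5 libraries for the 6 members that reached the abundance filter, on a log axis. Bars are 95% counting intervals, the grey line marks equal levels and the grey band is within 2-fold. miR-27b-3p in motoneurons over V3, at 2.06, lies at the edge of the band, and miR-23b-3p lies to the right of it with wide bars. miR-23b-3p reached the filter only in motoneurons and miR-24-2-5p only in V2a, so their gaps from the other libraries were partly built in.

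Called at 2-fold on TPM + 1, 6 of the 8 members were among 1007 miRNAs that reached 2.404 TPM in at least 1 library. Of these 6, miR-23b-3p reached it only in motoneurons and miR-24-2-5p only in V2a. Their gaps from the other libraries were thus partly built in, and their calls are a description. In motoneurons over V2a, 1 of the 6 was higher, miR-23b-3p, and 0 were lower, where 16.1% of the 1007 were higher and 28.1% lower. In motoneurons over V3, 2 were higher, miR-27b-3p and miR-23b-3p, and 0 were lower, where 28.5% of the 1007 were higher and 14.8% lower. In V2a over V3, 3 were higher, namely miR-23b-3p, miR-27b-5p and miR-24-2-5p, and 0 were lower, where 32.4% were higher and 9.93% lower. The median log2 ratio of all 1007 was -0.31, 0.24 and 0.52 in these 3 comparisons. Under median-of-ratios scaling, and under TMM too, 1 member was higher in each of the last 2 comparisons.

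The miR-23 guides were close to the counting limit at E12.5. miR-23b-3p stood at 7.54 TPM in motoneurons, 1.63 TPM in V2a and 0.25 TPM in V3, from about 26, 7 and 1 reads. miR-23a-3p stood at 0.72 TPM in motoneurons, 2.33 TPM in V2a and 0.25 TPM in V3, and did not reach the filter. The ratio of motoneurons over V2a for miR-23b-3p was 4.62 with a 95% counting interval of 1.99 to 12.8. That ratio is a description, since miR-23b-3p reached the filter only in motoneurons. With the miR-23a-3p and miR-23b-3p reads summed, which share a bundle, motoneurons stood at 8.25 TPM, V2a at 3.96 TPM and V3 at 0.50 TPM, and the pair was no longer past 2-fold on TPM + 1 against V2a. The miR-27 guides were 116, 190 and 953 times the miR-23 guides in motoneurons, V2a and V3, against 10.4 to 14.3 times at E10.5, and the V3 value rests on 2 reads. The caveat on stage and table applies to this ratio too.

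Passenger strands also took other shares at E12.5. miR-27b-5p was 5.15% of the Mir27b reads in motoneurons (95% exact binomial interval 4.43% to 5.96%), 12.2% in V2a (11.1% to 13.3%) and 8.54% in V3 (7.34% to 9.86%). With 1 library of each population, the intervals in this paragraph cover counting error only and not the spread between replicates. In the E10.5 libraries the miR-27b-5p share was 0.32% and 0.78% in motoneurons, against 0.32% and 0.69% in GFP-negative cells. The E10.5 groups thus overlapped, and replicates of a group lay apart. miR-23b-5p, with 35 reads in motoneurons, 4 in V2a and 9 in V3, stood above its guide in motoneurons and V3. In motoneurons its share of the Mir23b reads was 57.4% (95% exact binomial interval 44.1% to 70.0%), an interval that includes equal levels. In V3 the share was 9 of 10 reads, and the guide reads are a split of a shared bundle. miR-23b-5p reached 10.3 TPM in motoneurons, 0.93 TPM in V2a and 2.27 TPM in V3, and motoneurons over V2a were 11.1 (95% counting interval 3.96 to 42.9). In the E10.5 libraries it never passed 2.30% of the Mir23b reads.

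**Figure D4:**
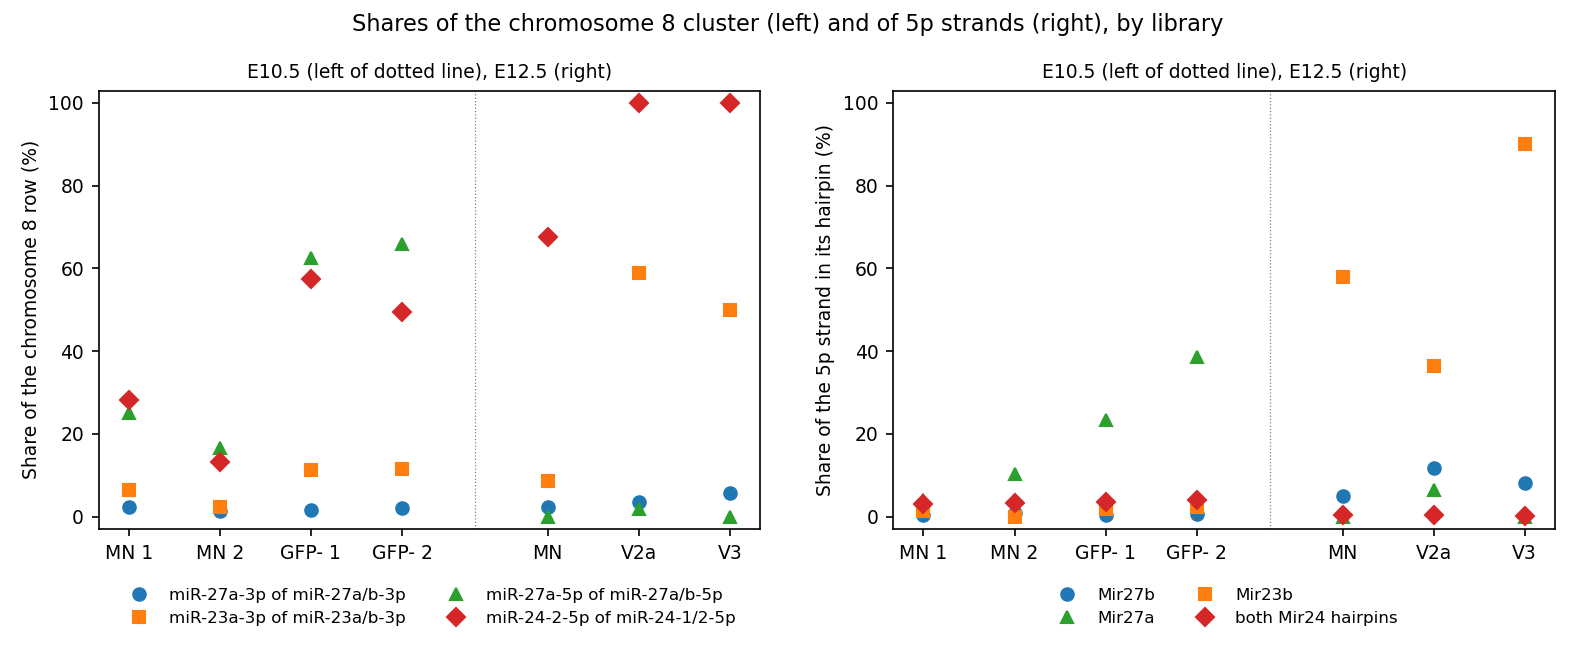
Left, share of the chromosome 8 product in each pair of paralogous strands; right, share of the 5p strand in its hairpin; both in percent, 1 point per library, with MN for motoneurons and GFP- for GFP-negative cells. The miR-27a-5p and miR-24-2-5p shares in E10.5 motoneurons, 13.2% to 28.3%, lie below those of GFP-negative cells, 49.5% to 66.0%. Both strands reached the abundance filter only in GFP-negative libraries, so that gap was partly built in. Their motoneuron shares rest on 1 or 2 reads per library. The miR-27a-3p share, whose strand reached the filter in both groups, overlaps between them.

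Passengers of the chromosome 8 cluster were found mostly in the V2a library at E12.5. Of the chromosome 13 passengers, miR-27b-5p was also highest in V2a, while miR-23b-5p and miR-24-1-5p were highest in motoneurons. Over the 1007 miRNAs considered, 28.1% were past 2-fold lower in motoneurons than in V2a, and 32.4% past 2-fold higher in V2a than in V3. miR-23a-5p had 0 reads in motoneurons, 19 in V2a and 3 in V3. With 0 reads, motoneurons could hold up to 0.844 TPM (3 reads), against 4.23 TPM measured in V2a. miR-27a-5p had 8 reads in V2a (1.78 TPM) and no whole read in motoneurons or V3. In the miR-23 passengers, miR-23a-5p was 0 of 35 reads in motoneurons, 19 of 23 in V2a (95% exact binomial interval 61.2% to 95.05%) and 3 of 12 in V3 (5.49% to 57.2%). miR-126a-3p, the endothelial marker, was likewise highest in V2a, at 172 TPM in motoneurons, 395 TPM in V2a and 173 TPM in V3. The sum of the 4 muscle miRNAs was highest there too, at 126 TPM in motoneurons, 221 TPM in V2a and 63.0 TPM in V3. Most of the V2a sum was miR-206-3p, at 4.50 TPM in motoneurons, 175 TPM in V2a and 32.9 TPM in V3. miR-1a-3p was highest in motoneurons, at 118 TPM against 41.2 TPM in V2a and 28.1 TPM in V3. miR-133b-3p was highest in V3 and at 0 in V2a. The mesenchymal and smooth muscle list peaked in V3, with sums of 199 TPM in motoneurons, 249 TPM in V2a and 310 TPM in V3. The part of these cell types in the values was not tested.

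Among 442 other miRNAs that reached the filters of both tables, those with profiles most like miR-27b-3p over the 7 libraries were miR-542-3p, miR-6539, miR-362-5p, miR-379-5p and miR-455-3p. Likeness was Pearson's r of log2(value + 1) centred within each table, and it ran from 0.979 to 0.992 for these 5. miR-542-3p stood at 285 and 268 RPM in E10.5 motoneurons, against 1502 and 1112 RPM in GFP-negative cells. At E12.5 it stood at 197 TPM in motoneurons, 160 TPM in V2a and 94.97 TPM in V3. For miR-24-3p they were miR-455-3p, let-7g-5p, miR-431-5p, miR-362-5p and miR-148a-5p, with r from 0.957 to 0.989. Among members that reached the filters of both tables, miR-27b-3p had r of 0.948 with miR-24-3p and 0.934 with miR-24-2-5p. It had r of 0.90 with miR-23b-3p, 0.85 with miR-27a-3p and 0.766 with miR-27b-5p. The 5 miRNAs above were picked as the highest of 442, while the members were taken by name and not by their r. The lower r of the members was therefore largely built in and is a description. miR-24-2-5p and miR-27b-5p had reached the E10.5 filter only in GFP-negative libraries, so part of their r was built in too. These values describe 7 libraries in which the E10.5 groups carry most of the spread.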

How the data were processed

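Small RNA was sequenced from sorted spinal cells in 7 libraries. Per the labels' protocols, papain-dissociated cells were sorted by FACS, and miRvana RNA went into NEBNext small RNA libraries. The submitters' processing notes list Bowtie2 without a version. For the counting program, genome build and annotation, the authors' choice is not given in the sources used here.

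Deposited E10.5 values were taken to be RPM, because each library sums to 1000000 and low values fall on multiples of 1 read. The deposited E12.5 values have no named unit and were taken to be FPKM, because low values fall on steps in the ratio of mature lengths. They were rescaled here to TPM. Reads came from the value of 1 read. Within 0.05 of a whole number lay 87.6% to 90.4% of low E10.5 values, and 97.4% to 100% in bundles of a single entry, so RPM were not treated as counts. At E12.5, 71.9% to 78.3% were whole at RefSeq lengths. The length of miR-23b-3p was taken as 21 nt, at which the summed bundle is whole.

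Groups were compared within a table by two-sided limma 3.58.1 tests (R 4.3.3, moderated variance with a trend) on log2(RPM + 1), with Benjamini-Hochberg adjustment, tested on simulated data. Other scalings, pseudocounts, filters, summed bundles, a fit without trend, a replicate block and leaving out each library were tried. Shares used exact permutation over libraries. Counting intervals are exact (Clopper-Pearson) at 95%, and leave out PCR duplication, because copies of 1 molecule are not separate measurements. They also leave out the spread between replicates, which at E10.5 was wider than counting error. Its chi-square per degree of freedom was 14.97 in motoneurons and 30.93 in GFP-negative cells. Values named were those of the 8 members, all other entries of the same loci, and the 5 miRNAs most like miR-27b-3p and miR-24-3p. Members and lists were chosen with earlier results of these data known.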

Additional observations from a re-analysis of the deposited data

How the results depend on the processing

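At E10.5 every member kept its direction under the 15 other settings in which it could be tested, and all but miR-27b-5p kept their side of the threshold. That member passed with a replicate block (log2 fold change -1.67, limma adjusted p = 0.0252) and without motoneuron replicate 2 (-2.29). Its leave-one-out values ran from -2.29 to -1.05, and it was not tested under TMM, under median-of-ratios scaling, or when the 5 most abundant miRNAs left the totals, because it missed the filter. Members called lower were 7, or 4 to 8 with a replicate left out, where 30.7% of all miRNAs were. Of the 7, 4 had reached the filter in both groups (28.1% of such miRNAs were called lower) and 3 only in GFP-negative libraries, where a difference was built in. The 4 came without either GFP-negative replicate, where miR-23a-3p and the 3 passengers no longer reached the filter. With the entries of a bundle summed, 5 of 6 were called lower, where 124 of all 420 tested were. The miR-23 guides, and likewise the miR-27 guides, then counted as 1 entry. The replicate block called 8. Replicate numbers share only a number: deviations of same-numbered libraries correlated at 0.26 over 492 miRNAs, from a single pair of groups. Over all miRNAs the split of 57 higher and 151 lower became 94 and 115 with the median of ratios, 98 and 121 with TMM factors, 108 and 116 without the 5 most abundant miRNAs, and 114 and 100 under quantile normalization. With only all-zero rows removed it was 34 and 126, and without motoneuron replicate 1 or 2 it was 29 and 125 or 27 and 120.

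At E12.5, the miR-23b-3p and miR-24-2-5p calls rest on few reads and on a filter reached in a single library. The miR-27b-3p and miR-27b-5p calls rest on more reads but changed with scaling. With the median of ratios, the log2 ratio of miR-27b-3p in motoneurons over V3 went from 1.04 to 0.80. That of miR-27b-5p in V2a over V3 went from 1.23 to 0.72. In motoneurons over V2a, higher members were 1, or 0 with a pseudocount of 10 and 0 with bundles summed. Of all miRNAs considered, 16.1%, 4.37% and 15.6% were higher in these settings. Lower members were 0, or 3 of 7 without the 5 most abundant miRNAs and 1 of 8 with only all-zero rows removed. Of all miRNAs considered, 28.1%, 46.2% and 21.5% were lower in these settings. In motoneurons over V3, higher members were 2, or 1 under TMM, median-of-ratios scaling, a pseudocount of 10, bundles summed, or when the 5 most abundant miRNAs left the totals, and lower members were 0, or 1 without the 5 most abundant. In V2a over V3, higher members were 3, or 1 under TMM, median-of-ratios scaling or a pseudocount of 10, 4 without the 5 most abundant miRNAs, and 5 with only all-zero rows removed. The cause of these changes was not tested, beyond the summing and the filter, which change the rows considered. Depth limits the passengers and the miR-23 guides, where 1 read is 1.25 to 2.03 RPM at E10.5.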
